A study of Saccharomyces cerevisiae x Saccharomyces kudriavzevii with 6 samples.

Results

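The cold response of the natural hybrid wine yeast W27 was compared with that of the natural hybrid wine yeast VIN7. For every open reading frame (ORF) on the array, the log2 ratio of mRNA at 12°C over 28°C in W27 was set against the same ratio in VIN7. An ORF entered the comparison if it had a value on at least 2 of the 3 arrays of each strain, and 4670 of 5616 ORFs did. Of the 946 ORFs left out, 430 had too few values in W27 alone, 224 in VIN7 alone and 292 in both. Values on all 6 arrays were present for 2674 ORFs.

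Lalvin W27, isolated in Switzerland, and VIN7, isolated in South Africa, are both allotriploid hybrids of Saccharomyces cerevisiae and Saccharomyces kudriavzevii, a species that grows well in the cold. Both lack parts of the S. kudriavzevii genome, on chromosomes IV, IX and XV in W27, and chromosome III and parts of IV and VII in VIN7. Each strain fermented Tempranillo grape must at 12°C and at 28°C, and cells were collected early in exponential growth. On each array the 12°C sample was hybridised against the 28°C sample of the same strain, so that a value of 1 stands for a doubling of mRNA in the cold and a value of 0 for no difference. The arrays carried PCR-amplified ORFs of the S. cerevisiae laboratory strain S288c, and 1 spot read the transcripts of both parental alleles together. The labels call the 3 arrays of a strain, A, B and C, biological replicates, while the methods describe a pair of independent fermentations per strain with several samples each. The p-values below therefore measure the spread between these samples only. VIN7 C was a dye swap and the other 5 arrays had the 12°C sample in Cy5. A fit with a dye term made no call, like the fit without it. Since VIN7 C alone carries the swap, that fit cannot tell an effect of dye from one of this array.

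Yeast ferments sugar through glycolysis, whose later steps turn triose phosphates into pyruvate and yields ATP. Pyruvate decarboxylases then open the way to ethanol. Glycolytic mRNAs are among the most abundant in fermenting cells, while in the cold, translation slows, cell walls are remodelled and genes for ribosomes, chaperones and stress protectants are adjusted.

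The arrays differed in spread and in likeness, and this bore on every comparison. The standard deviation of the log2 ratios was between 1.00 and 1.49 in W27 and between 0.392 and 1.71 in VIN7, and array medians lay between -0.11 and 0.08. W27 B and W27 C correlated with each other at r = 0.801 across ORFs. W27 A ran against them, at r = -0.146 with W27 B and -0.190 with W27 C, and its r with the VIN7 arrays lay between -0.289 and -0.108. Within VIN7, r was 0.378 for A and B, 0.372 for A and C and 0.0518 for B and C. These correlations are across ORFs, which are not independent replicates. The sign of W27 A was kept as deposited, and values that rest on this array are given with and without it, here or in the plot of differences.

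The mean response in W27 and the mean response in VIN7 correlated at r = 0.272 (Spearman's rho = 0.236) over the 4670 ORFs. Without W27 A the coefficient was 0.472, and the mean of W27 B and C correlated with VIN7 A at 0.654. W27 B and C thus had patterns nearer to VIN7 A than to the third array of their own strain.

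**Figure D1:**
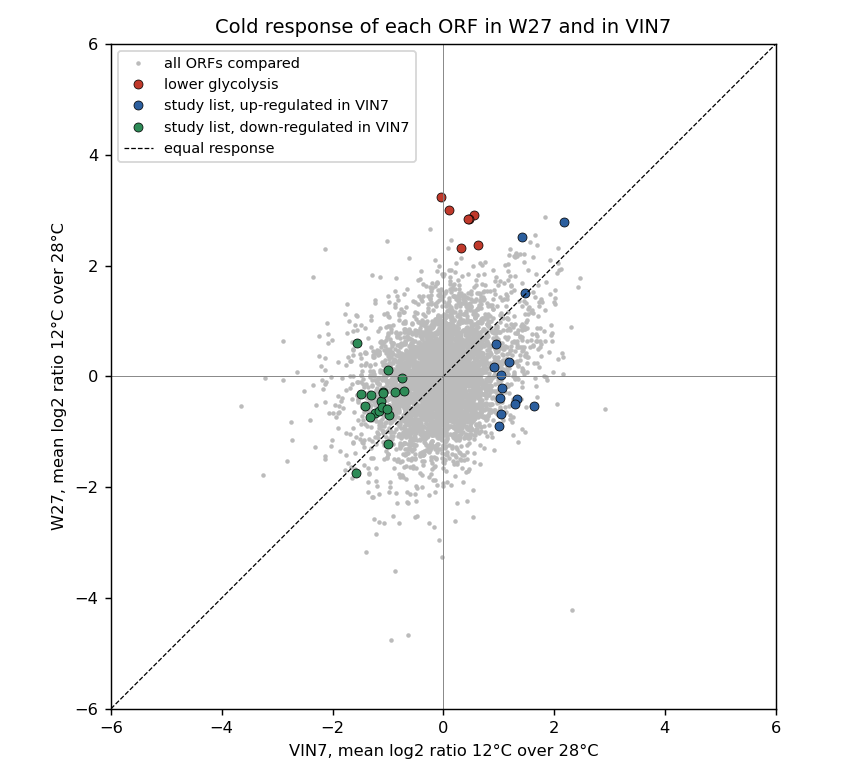
Mean log2 ratio of 12°C over 28°C in W27 (vertical axis) against that in VIN7 (horizontal axis), 1 point for each of 4670 ORFs, with 3 gene lists in colour and a dashed line of equal response. The 7 lower glycolysis genes stand above the line, with W27 means over 2, and most genes of the list up-regulated in VIN7 stand below it.

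Over all ORFs the difference, W27 minus VIN7, had a median of -0.02 and a standard deviation of 0.88, with the 5th and 95th percentiles at -1.34 and 1.46. A difference of at least 2-fold was found for 578 ORFs with W27 higher (12.4%) and 538 with W27 lower (11.5%). In the limma fit, which tests each ORF against the spread of its arrays, 0 ORFs passed a Benjamini-Hochberg adjusted p of 0.05 in either direction (0.0% each way), and the smallest adjusted p was 0.893. At an unadjusted p under 0.05 there were 61 ORFs with W27 higher (1.31%) and 86 with W27 lower (1.84%). The precision was low, with a median standard error of 0.719 and a median half-width of the 95% interval of 1.69 on the log2 scale. At that half-width a smaller difference leaves 0 inside the interval. The adjusted test is stricter still, and no difference passed it, whatever its size.

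All 6 values were available for 2674 ORFs, and for 138 of them (5.16%) the lowest W27 value exceeded the highest VIN7 value. For 264 ORFs (9.87%) the highest W27 value stayed under the lowest VIN7 value. Counting ORFs with 2 values per strain as well, the strains did not overlap for 8.99% of the 4670 ORFs with W27 above and for 9.81% with W27 below. Opposite signs in the strains were found for 1.2% of the 2674 ORFs with W27 above 0 and VIN7 below it and for 3.48% the other way round, and for 2.42% and 3.06% of the 4670 ORFs. An exact permutation test of 3 against 3 arrays cannot go below a two-sided p of 0.1, so these counts describe the order of the arrays only.

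The 7 lower glycolysis genes with a name in the study's gene lists were the group with the highest median difference. All 7 kept the strains apart with W27 above, against 5.16% of the ORFs with 6 values, and all 7 had an unadjusted p under 0.05, against 1.31% of all ORFs in that direction. Their median difference was 2.38, against -0.02 over all ORFs tested. These genes bear names here because the study listed them as up-regulated in W27 on the same arrays. That choice favours a positive difference and strains that do not overlap. The counts, the p-values and the median are therefore a description and not independent evidence. The fructose bisphosphate aldolase, triose phosphate isomerase and pyruvate kinase genes, also on the list of lower glycolysis, were not matched to an ORF by name. This does not mean that they were not measured, since other ORFs keep their systematic names here.

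ENO1, an enolase gene, had log2 ratios of 4.20, 2.69 and 2.80 on W27 A, B and C, against 0.50, -0.67 and 0.02 on VIN7 A, B and C. The lowest W27 array stood 2.19 above the highest VIN7 array, and this was the widest gap of any ORF with W27 above and values on all 6 arrays. The difference was 3.28 (95% interval 1.83 to 4.73, limma adjusted p = 0.893), and 2.80 without W27 A. ENO2, the other enolase gene, had 3.26, 2.44 and 2.81 in W27, against 0.81, 0.42 and 0.12 in VIN7. Its difference of 2.38 (1.20 to 3.57) was smaller than that of ENO1, and VIN7 lay above 0 on each array. The enolases are near-identical in sequence, so cDNA of either could bind both spots.

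TDH1, TDH2 and TDH3 encode glyceraldehyde-3-phosphate dehydrogenase, and their spots also share cDNA. TDH1 measured 3.78, 2.36 and 2.87 in W27, against 0.42, -0.22 and 0.14 in VIN7, a difference of 2.89 (1.59 to 4.20). For TDH3 the ratios were 3.52, 2.28 and 2.73 in W27, against 0.80, 0.31 and 0.26 in VIN7, a difference of 2.39 (1.13 to 3.65). The gap was narrowest for TDH2, with 2.51, 1.94 and 2.65 in W27, against 0.88, 0.27 and 0.74 in VIN7. In TDH2, W27 A was not the highest array, and the difference of 1.74 (0.57 to 2.91) was 1.67 without it.

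Phosphoglycerate mutase, encoded by GPM1, had 2.53, 1.87 and 2.53 in W27, against 0.51, 0.53 and -0.08 in VIN7. Its difference was 1.99 (0.82 to 3.16). YKL153W, which by its systematic number neighbours GPM1 on the other strand, had 2.82, 2.01 and 2.10 in W27, against 0.45, -0.06 and -0.13 in VIN7. Spots of double-stranded PCR product do not resolve strands, so this ORF was not counted as a separate member. PGK1, the phosphoglycerate kinase gene, was the exception in evenness, with 5.04, 1.87 and 1.81 in W27, against 1.07, -0.65 and 1.24 in VIN7. Its interval, 0.07 to 4.64, reached nearly to 0, and its difference of 2.35 was 1.28 without W27 A.

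Upper glycolysis was represented by the phosphofructokinase subunits. PFK2 had 3.22, 1.69 and 1.09 in W27, against 0.40, 0.99 and 0.21 in VIN7, a difference of 1.47 (-0.08 to 3.02). PFK1 had 1.80 and 1.43 on W27 A and B, against 1.01 and 0.09 on VIN7 B and C, a difference of 1.06 (-0.70 to 2.82). Both subunits kept the strains apart, against 8.99% of all ORFs with W27 above, but by less than the lower glycolysis genes. Both are on the study's list of genes up-regulated between the parental species and the hybrids. It was drawn with these arrays included, so this order is not independent evidence.

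The 3 pyruvate decarboxylase genes had smaller differences than the lower glycolysis genes. All 3 are on the study's list of genes up-regulated in VIN7, and PDC1 and PDC5 also on that of W27, so their high values in these strains are not independent evidence. PDC1, the main isozyme, had 3.21, 2.34 and 2.83 in W27, against 2.27, 2.49 and 1.75 in VIN7, and its difference of 0.62 (-0.58 to 1.82) left the strains overlapping. PDC5, a minor isozyme, had 3.57, 1.80 and 2.18 in W27, against 1.55, 1.28 and 1.43 in VIN7. The W27 arrays of PDC5 stood above those of VIN7, with a difference of 1.10 (-0.30 to 2.49). PDC6, the third isozyme, had 2.03, 1.35 and 1.11 in W27, against 1.92, 1.57 and 0.95 in VIN7, and its difference was 0.02 (-1.23 to 1.27).

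**Figure D2:**
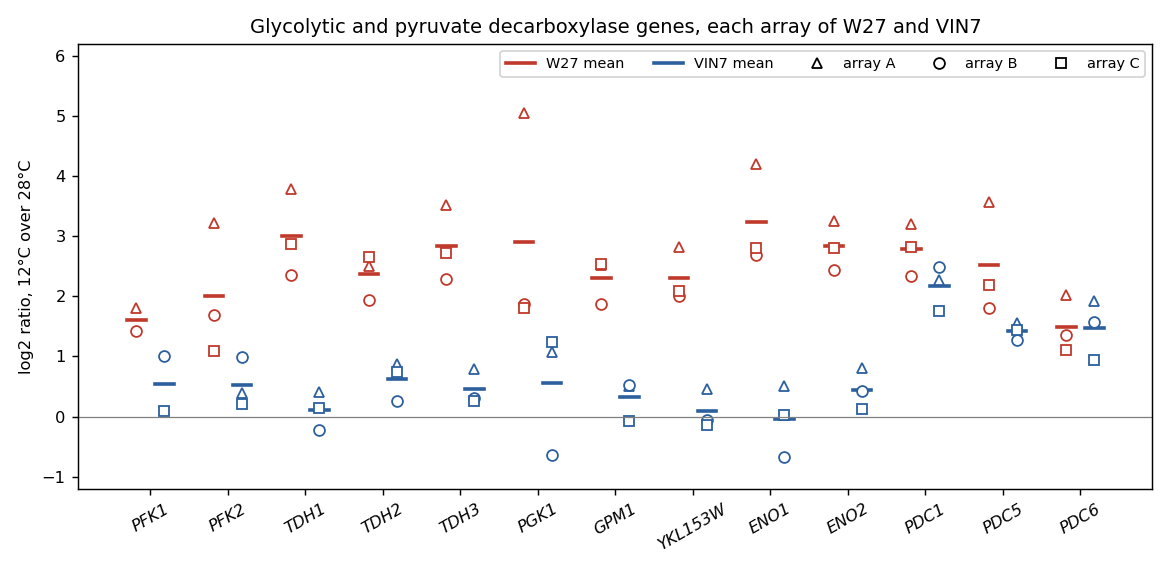
Log2 ratio of 12°C over 28°C for glycolytic and pyruvate decarboxylase genes on each W27 array (red, left of each pair) and each VIN7 array (blue, right), with bars at the strain means and a marker shape for each array. From TDH1 to ENO2 every red point lies above every blue point, while at PDC1 and PDC6 the strains overlap.

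For all 7 lower glycolysis genes the direction of the difference held when either strain lost 1 array. PDC6 changed sign, to -0.25, without W27 A and likewise without VIN7 C. The median of the 7 lower glycolysis genes was 2.05 without W27 A. If the sign of W27 A were turned, it would be 0.21 and that of PGK1 -1.01, but W27 A had the same sign as W27 B and C for each of the 7 genes as deposited.

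A second limma fit gave each array a weight by its scatter, between 0.137 for W27 A and 2.99 for VIN7 A, with 0.236 for VIN7 B. There 8 ORFs with W27 higher (0.171%) and 29 with W27 lower (0.621%) passed an adjusted p of 0.05. Those with W27 higher included ENO1 (adjusted p = 0.0254), TDH1 (0.0295), ENO2 (0.0348), TDH3 (0.0379), YKL153W (0.0379) and GPM1 (0.0465), and for these genes the weighted differences lay between 1.84 and 2.50. No other fit made a call, and the weights rest on the same scatter between arrays that the fit then tests.

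The remaining ORFs with the widest gaps had no name in the files used here. YKL060C had 3.49, 1.19 and 1.74 in W27, against -0.68, -0.76 and -0.40 in VIN7, so that the strains had opposite signs, with a difference of 2.75 (1.18 to 4.33) and an adjusted p with array weights of 0.0362. YMR303C also took opposite signs, with 4.82, 1.16 and 1.36 in W27, against -0.41, -2.49 and -0.15 in VIN7, and its difference of 3.46 was 2.27 without W27 A. On the other side, YDR405W had -1.93, -1.41 and -1.15 in W27, against 0.11, 0.87 and 0.28 in VIN7, a difference of -1.92 (-3.11 to -0.72). YMR149W had -1.89, -0.64 and -0.56 in W27, against 0.68, 0.84 and 1.09 in VIN7, a difference of -1.90 (-3.19 to -0.60). Of the 12 widest gaps, 7 with W27 above belonged to ORFs with an entry in the study's lists and 0 with W27 below did. Genes with W27 below VIN7 are thus mostly unnamed here.

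The 29 ORFs called with W27 lower under array weights were of another kind. Of these, 26 had a W27 B value below -2, 16 had no value on W27 C and 14 kept the strains apart without overlap. Their median was -0.24 on W27 A and -2.97 on W27 B. By their systematic names 26 lay on chromosomes I to IV, which hold 1068 of the 4670 ORFs compared, and 11 lay on chromosome III. For the 16 without W27 C, W27 B was the only W27 array of high weight.

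Chromosomes I to IV had the lowest median differences. The median difference was -0.49 on chromosome III (130 ORFs), -0.34 on I (54 ORFs), -0.23 on II (289 ORFs) and -0.11 on IV (595 ORFs), and between -0.06 and 0.12 on the other chromosomes. On chromosome III the medians were -0.23, -0.62 and -0.50 in W27, against -0.26, -0.30 and 0.34 in VIN7. The dye-swapped VIN7 C thus lay above 0 where VIN7 A and B lay below it, and likewise on I and II. Without VIN7 C the median differences were -0.012 on I, 0.06 on II, -0.13 on III and -0.015 on IV. Chromosome III was then not set apart, since the median was -0.16 on VI, -0.11 on XII and 0.19 on XVI. With any other array left out instead, the median on III lay between -0.73 (without VIN7 A) and -0.33 (without W27 B). VIN7 lacks the S. kudriavzevii copy of chromosome III. The part of the missing copy in these medians was not tested.

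**Figure D3:**
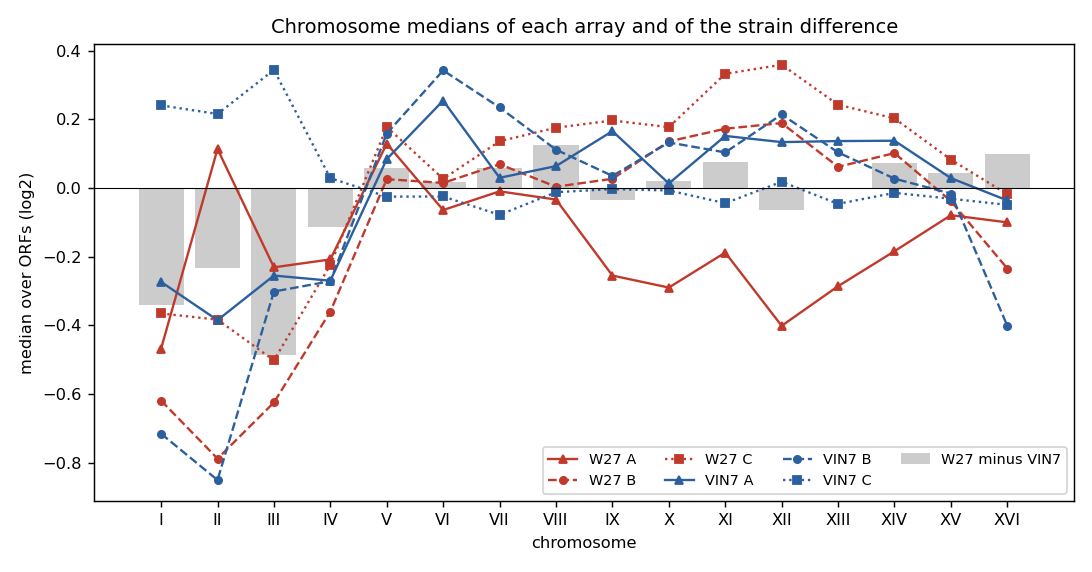
Median log2 ratio over the ORFs of each chromosome for the W27 arrays (red) and the VIN7 arrays (blue), with grey bars for the median of the difference, W27 minus VIN7; lines only join the points of an array. On chromosomes I to III VIN7 C stands between 0.22 and 0.34 while VIN7 A and B are negative, and the bars lie below 0 there.

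The 4 compared members of general stress defence had a median difference of 1.40. DDR48, AHP1 and GRE2 among them are on a list that the study drew from these arrays for higher values in W27 than in VIN7, so the median is not independent evidence. Of the 4, 0 passed the adjusted test and 1 had an unadjusted p under 0.05, against 1.31% of all ORFs in that direction. DDR48, a protein induced by heat shock and DNA damage, had 1.75, -0.10 and 0.82 in W27, against -1.83 and -0.54 on VIN7 A and C. Its difference of 2.01 (0.15 to 3.87) was 1.55 without W27 A, and no W27 array overlapped VIN7. AHP1, a thioredoxin peroxidase, had 1.15, 0.12 and 0.15 in W27, against -0.57, -1.52 and 0.09 in VIN7, so that 2 W27 arrays lay just above VIN7 C. GRE2, a methylglyoxal reductase, spread from -0.33 to 3.44 in W27, against -1.36 to 1.17 in VIN7, and overlapped. DDR2, a multistress gene, reached 3.68 on W27 A and 3.75 on VIN7 B, and its difference of 0.25 was -1.13 without W27 A.

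Among heat shock proteins and chaperones 3 of 4 members had a positive difference, against 49.0% of all ORFs, and the strains overlapped at all 4. All 4 are on the study's list of genes up-regulated between the parental species and the hybrids. It was drawn with these arrays included, so the direction is not independent evidence. SSA2, a cytosolic Hsp70, had 2.67, 0.68 and 1.28 in W27, against 0.97, 0.44 and 0.77 in VIN7, a difference of 0.82 (-0.65 to 2.28). AHA1, an activator of Hsp90, had a difference of 0.70 (-0.54 to 1.95), and SSB2, the ribosome-bound Hsp70, one of 0.78 (-0.81 to 2.37). Both had all 3 W27 arrays above 0. CPR1, the cyclophilin A gene, had the opposite sign, at -0.89 (-2.42 to 0.65).

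The medians of ribosomal protein genes turned on W27 A. The 8 small-subunit genes had a median of 1.69 on W27 A but -0.67 and -0.52 on W27 B and C, against -0.39, -0.12 and -0.19 on VIN7 A, B and C. Their median difference was 0.72 with W27 A and -0.28 without it, so the list had no direction that all arrays shared. RPS18a, whose cDNA is shared with a near-identical copy, had 2.02, -1.78 and -1.07 in W27, against -0.95, -0.95 and -0.72 in VIN7. RPS15 had 2.41, -0.60 and -0.31 in W27, against 0.36, -0.28 and -0.12 in VIN7. Not all members split in this way. RPS16a had -0.89, -0.74 and -0.52 in W27, against -0.32, -0.12 and -0.04 in VIN7. There W27 A ran with W27 B and C, the strains did not overlap, and the difference was small, -0.56 (-1.65 to 0.53). RPS10b again split, with 1.25, -1.45 and -0.77 in W27, against -1.92 and -1.07 on VIN7 A and C. Its difference of 1.17 (-0.99 to 3.33) was 0.38 without W27 A. In the large subunit, 4 of 5 genes had a positive difference with a median of 0.23, and RPL32 had the largest, 1.49 (-0.76 to 3.74), from 2 arrays in each strain.

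Of the genes that process ribosomal RNA, 3 were compared. NUG1, a GTPase needed to export the large subunit from the nucleus, had 1.29, -0.42 and -0.54 in W27, against -1.16 and -0.82 on VIN7 A and C. The strains did not overlap, and the difference of 1.10 (-0.69 to 2.89) was 0.51 without W27 A. UTP13, of the small-subunit processome, had -2.42, 1.53 and 1.69 in W27, against 1.32, 1.36 and 0.87 in VIN7, so its difference of -0.92 became 0.43 without that array.

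Translation factors had a median difference of 0.24, with 4 of 6 positive. EFT1, which encodes elongation factor 2 and shares its cDNA with EFT2, had 3.43, 0.65 and 1.11 in W27, against 0.22, 1.28 and 0.28 in VIN7, and its difference of 1.14 was 0.29 without W27 A. The EFT2 spot differed by only 0.18, with means of 0.995 in W27 and 0.815 in VIN7, and the strains overlapped. ANB1, the anaerobic form of eIF5A, had 0.30, 0.80 and 0.63 in W27, against 0.92, 1.08 and 0.83 in VIN7. For ANB1 every W27 array lay below every VIN7 array, with a difference of -0.36 (-1.46 to 0.74). ANB1 is on the study's list of genes up-regulated in VIN7, so this order is not independent evidence.

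Cell wall genes had ratios mostly above 0 in both strains. CWP2, a major mannoprotein, had 2.70, 0.69 and 1.22 in W27, against 0.38, 0.92 and 0.19 in VIN7, a difference of 1.03 (-0.47 to 2.53). FLO5, a flocculin with close relatives in the genome, had 1.96, 1.06 and 1.52 in W27, against 0.11, 1.77 and -0.08 in VIN7. In both genes only VIN7 B reached the W27 range.

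Amino acid biosynthesis had a positive difference in 5 of 5 genes, against 49.0% of all ORFs, with a median of 0.66. All 5 are on the study's list of genes up-regulated between the parental species and the hybrids. That list was drawn with these arrays included, so this direction is not independent evidence. ILV2, acetolactate synthase of the branched-chain pathway, had 2.67 and 1.01 on W27 A and B, against 0.92, 0.17 and 0.23 in VIN7, a difference of 1.41 (-0.30 to 3.11). Mitochondrial ribosomal proteins had a negative difference in 4 of 5 genes, with a median of -0.31. That median changed sign, to 0.27 with the arrays on a common spread and 0.30 with quantile normalization. It was 0.10 if W27 A was read with the other sign. MRPL7, MRPL44, MRPS35 and RSM18 are on the matching list of down-regulated genes, also drawn with these arrays included. MRPL8 is on the study's list of genes up-regulated in VIN7, which favours a negative difference. MRPL8 had -3.01, 0.34 and -0.03 in W27, against 1.04, 0.90 and 1.07 in VIN7, a difference of -1.90 (-3.96 to 0.15) that was -0.85 without W27 A. In the tricarboxylic acid and glyoxylate cycles the 3 genes were mixed. IDP2, cytosolic isocitrate dehydrogenase, had -3.29, 0.76 and 1.31 in W27, against 1.23, 1.75 and 1.01 in VIN7, and SDH3, a subunit of succinate dehydrogenase, had 2.60, -0.61 and 0.62 in W27, against 0.01 and -0.04 on VIN7 A and C. ATP2, the beta subunit of the mitochondrial ATP synthase, had 1.49 and 2.27 on W27 A and B, against 0.58 and -0.15 on VIN7 B and C. Its difference of 1.66 (-0.12 to 3.44) was larger, 2.05, without W27 A.

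The chromatin remodelling complexes SWR1 and INO80 share actin as a subunit, and their 3 compared genes had positive differences with a median of 0.97. SWR1 itself, the ATPase that places the histone variant H2A.Z, had 0.98, 0.46 and 0.56 in W27, against -0.38 and -0.22 on VIN7 A and C. Every W27 value was positive and both VIN7 values were negative, and the difference was 0.97 (-0.39 to 2.32), but SWR1 too is on the list the study drew for this direction. INO80 had 0.80, -1.15 and -0.99 in W27, against -1.40 and -0.86 in VIN7, so the strains overlapped. Of the actin cytoskeleton genes, ACT1 had 3.11, 1.56 and 1.54 in W27, against 1.81 and -0.31 on VIN7 A and C, while COF1, the cofilin gene, had 2.10 and 0.71 on W27 A and B, against 0.39 and -0.87 on VIN7 B and C. EIS1, an eisosome protein placed with actin in this list, had -1.61, 1.11 and 0.57 in W27, against 0.94, 1.22 and 0.95 in VIN7.

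Without W27 A the median difference was 0.76 for general stress defence, 0.19 for chaperones, 0.45 for cell wall genes, 0.58 for amino acid biosynthesis and 0.80 for SWR1 and INO80. It was -0.46 for large-subunit ribosomal proteins and -0.23 for translation factors, which thus lost their sign together with the small-subunit genes, and -0.85 for mitochondrial ribosomal proteins.

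**Figure D4:**
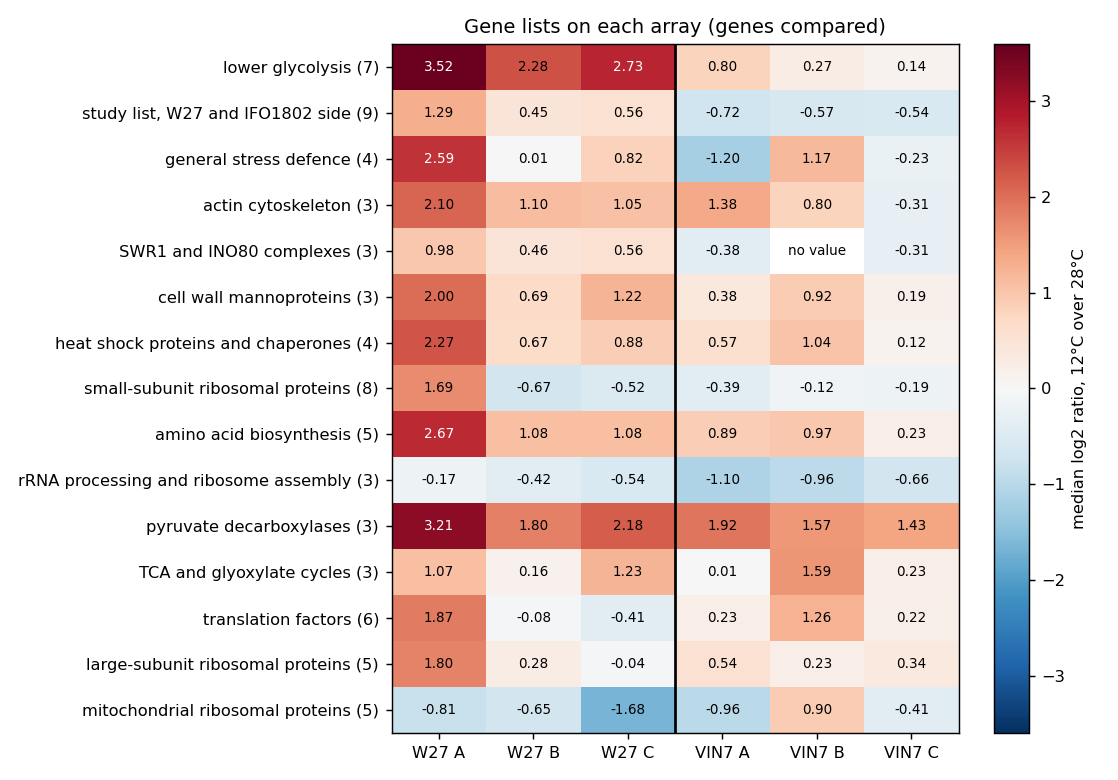
Median log2 ratio of 12°C over 28°C for gene lists with at least 3 compared genes, with W27 arrays left of the black line and VIN7 arrays right of it, ordered by the median difference between the strains; the number of genes compared stands in brackets. Lower glycolysis is above 2 on each W27 array and below 1 on each VIN7 array, while the small-subunit ribosomal proteins are at 1.69 on W27 A and below 0 on the other 5 arrays.

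The genes that the study listed for these strains were then followed across both. A list of 13 genes was drawn from these arrays as higher in W27 and the S. kudriavzevii type strain IFO1802 than in VIN7 and the S. cerevisiae wine strain T73, so its direction is not independent evidence. DDR48, AHP1, GRE2, NUG1, SWR1 and COF1, described above, belong to it. Of the 13, 9 could be compared, 9 had a positive difference, 8 did not overlap (8.99% over all ORFs) and 0 passed the adjusted test. Their median difference was 1.65, and 0.95 without W27 A. PRE5, a subunit of the 20S proteasome, had 2.41, 0.77 and 0.32 in W27, against -0.86 and -0.56 on VIN7 A and C, a difference of 1.88 (0.03 to 3.72). DIP5, a permease for glutamate and aspartate, had 0.66 and 0.51 on W27 A and B, against -1.77 and -0.46 on VIN7 B and C. YHR112C had 1.24, 0.45 and 0.67 in W27, against -0.56 and -0.28 in VIN7. In each of these genes the signs were opposite in the strains (2.42% of all ORFs in that direction), and 8 of the 9 genes lacked a value on at least 1 array.

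For genes listed as up-regulated in VIN7, the size of the difference rested mainly on W27 A, while its direction did not. They were chosen for high VIN7 values on these arrays, which favours a negative difference, so the counts that follow are a description. MRPL8, ANB1, IDP2, UTP13 and EIS1, described above, belong to this list. Of 14 compared, 11 had a negative difference and 8 lay below VIN7 without overlap (9.87% of ORFs with 6 values), with a median difference of -1.15. The list median was -1.99 on W27 A but 0.77 and 0.62 on W27 B and C, against 1.17, 1.28 and 0.95 on the VIN7 arrays in the same order. Without W27 A the median difference was -0.33, and 3 of the 14 genes had a positive difference. With the arrays on a common spread the median was -1.48, and 0 of the 14 were positive. MMR1, which tethers mitochondria for inheritance by the bud, had -3.27, 0.74 and 0.91 in W27, against 1.34, 2.21 and 1.34 in VIN7. GSY2, the main glycogen synthase, had -2.24, 0.63 and 0.09 in W27, against 1.12, 1.61 and 1.16 in VIN7, and MSO1, which acts in vesicle fusion, had -2.49, -0.05 and 0.49 in W27, against 0.94, 1.29 and 0.89 in VIN7. On W27 B and C alone these genes still lay below the VIN7 arrays, by a smaller amount, with mean differences of -0.81 for MMR1, -0.93 for GSY2 and -0.82 for MSO1.

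Genes listed as down-regulated in VIN7 had a positive difference in 17 of 19 cases, and 6 did not overlap, against 8.99% of all ORFs with W27 above. Choosing genes for low VIN7 values on these arrays favours a positive difference, so these counts are not independent evidence. Here too the arrays of W27 split, with a list median of 0.78 on W27 A and of -0.87 and -0.998 on W27 B and C, against -1.27, -0.95 and -0.91 on VIN7 A, B and C. YJR011C had 2.81, -0.58 and -0.44 in W27, against -2.24, -1.14 and -1.31 in VIN7, a difference of 2.16 (-0.03 to 4.34). All 3 W27 arrays were above VIN7, although 2 of them were below 0. Without W27 A, 11 of the 19 genes had a positive difference and the median was 0.20.

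The list down-regulated in W27, chosen likewise for low W27 values, holds 3 genes, and all 3 had lower means in W27. SPC3, a subunit of signal peptidase, had -2.42, -3.33 and -2.20 in W27, against -1.43 and -0.70 on VIN7 A and C, a difference of -1.58 (-3.13 to -0.04). YER010C had -3.80, -2.02 and -2.71 in W27, against -2.09 and -0.35 in VIN7. RMD1, required for meiotic nuclear division, ranged from -9.0 to -0.78 in W27, against -1.77 and 0.50 in VIN7, and its interval of -9.21 to 1.15 was too wide to place it. Of the 13 genes compared from the list up-regulated in W27, 13 had a positive difference and 10 did not overlap (5.16% of ORFs with 6 values), with a median of 1.99. This list was chosen for high W27 values on these arrays and holds the 7 lower glycolysis genes, so it adds no independent evidence. The list medians were 3.26, 2.01 and 2.65 on W27 A, B and C, against 0.87, 0.42 and 0.14 on VIN7 A, B and C. The VIN7 medians therefore had the same sign as those of W27 at a smaller size.

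Lists that the study drew between the parental species and the hybrids, with these arrays among them, were also followed. Of the 77 compared genes listed as up-regulated there, 63 had a positive difference, with a median of 0.46, and of the 73 listed as down-regulated, 55 had a negative difference, with a median of -0.39, against 49.0% of all ORFs with a positive difference. The strains did not overlap for 13 of the 77 with W27 above (8.99% over all ORFs) and for 20 of the 73 with W27 below (9.81% over all ORFs). Without W27 A, 52 of the 77 were positive, with a median of 0.25, and 12 of the 73, with a median of -0.43. The negative direction of the second list was not stable, since its median was -0.016 without VIN7 C, with 35 of 73 positive, -0.023 with the arrays on a common spread and 0.025 with quantile normalization. The first list had medians of 1.77, 0.92 and 1.03 in W27, against 0.64, 1.22 and 0.15 in VIN7. The second had -0.95, -1.46 and -1.33 in W27, against -1.10, -1.78 and -0.36 in VIN7. VIN7 C, the array with the narrowest spread, was nearest to 0 in both, and VIN7 B lay beyond at least 1 W27 array in both.

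**Figure D5:**
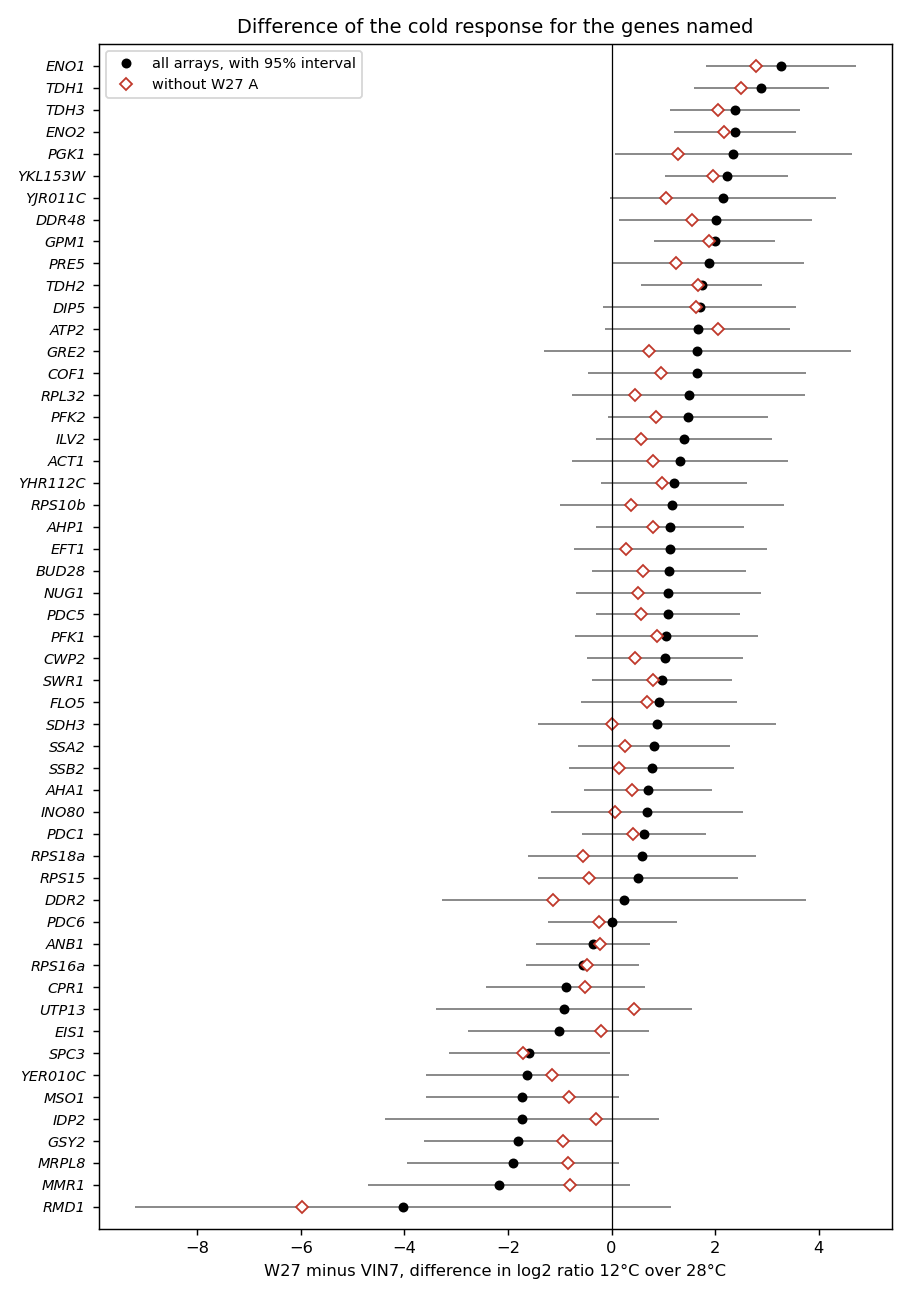
Difference of the log2 ratio, W27 minus VIN7, for the named genes of the text, with the 95% interval of the limma fit (black point and grey line) and the difference without W27 A (open red diamond). The intervals of ENO1, TDH1, ENO2, TDH3, GPM1, TDH2 and YKL153W lie well above 0, while for genes such as RPS18a and UTP13 the diamond falls on the other side of 0.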

How the data were processed

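mRNA of the hybrids W27 and VIN7 was measured on dual-colour cDNA arrays, 3 for each strain, each with the 12°C and the 28°C sample of that strain. The deposited values are log2 ratios of 12°C over 28°C per ORF, made by the authors from GenePix scans and normalized in Acuity. The methods state that each dataset was brought to a log2 ratio of 1, while the medians of the deposited arrays lie near 0. Whether the dye-swapped VIN7 C was turned before deposit is not given in the sources used here, so directions follow the labels. Spot intensities were not used here, and how far spots lay above background is unknown.

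The values were used as deposited, with no floor or pseudocount. An ORF was compared with at least 2 values in each strain. The main test was limma (3.58.1, R 4.3.3), with a linear model of strain over all 6 arrays, empirical Bayes, a two-sided test and Benjamini-Hochberg adjustment over 4670 ORFs at a threshold of 0.05. The fit was also run on simulated data as a check of the code, not of its precision on these arrays. Intervals are 95% intervals of that fit, with n = 3 arrays per strain, or 2 where a value was missing. The number of arrays limits the precision. No column of the table was left unused.

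Gene names came from the study's gene lists, which hold 242 of the ORFs, 198 of them compared, and other ORFs keep their systematic names. Gene lists by pathway were matched through those names, so most of their members stayed unmatched. The matched members are thus genes that the study picked with these arrays included. The direction of a pathway list is therefore not independent evidence. The gene group, the lists and the tests were chosen with earlier results of these data known, and no list was tested as a set. Lists were described by counts and medians. Genes named were those the study lists between the strains, the 12 widest gaps in each direction, up to 4 separated members of each gene list with its extremes, and ORFs called with array weights. Of unnamed ORFs only 2 in each direction are given. A few further members of the gene lists, among them RPS15, RPS18a, SSB2, AHA1 and PFK1, were chosen after their values were seen. Alternatives were other scalings, array weights, signs turned for W27 A and VIN7 C, a dye term, the replicate letter as a block, other filters and each array left out.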

Additional observations from a re-analysis of the deposited data

Results flagged for a closer look

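A few results were singled out because every array of W27 moved one way and every array of VIN7 the other, which is an untested order of values. Of the 2674 ORFs with values on all 6 arrays, 32 (1.2%) were above 0 on each W27 array and below 0 on each VIN7 array, and 93 (3.48%) were below 0 on each W27 array and above 0 on each VIN7 array. Among the named genes, SWR1, of the histone exchange complex, differed by 0.968 between the strains (limma adjusted p = 0.893). PRE5, of the proteasome, differed by 1.88 with the same adjusted p, DIP5, the acidic amino acid permease, by 1.70, and YHR112C by 1.21. BUD28 had 1.06 and 0.05 on W27 A and B, against -0.59, -0.88 and -0.23 in VIN7, a difference of 1.12 (-0.37 to 2.60). SWR1, PRE5, DIP5 and YHR112C are on the list the study drew from these arrays for higher values in W27 than in VIN7, so their direction is not independent evidence. These named genes lack a value on at least 1 array, and in limma's test of the difference 0 of them passed the adjusted threshold.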

How the results depend on the processing

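With 3 arrays per strain, few differences could be resolved, and W27 A, which ran against the other arrays, decided most of what changed. In the limma fits ORFs passed the adjusted threshold only under array weights (8 with W27 higher and 29 with W27 lower), and the smallest adjusted p in the fits without weights lay between 0.114, without W27 A and VIN7 B together, and 0.992, with the sign of VIN7 C turned. At a threshold of 0.10 the weighted fit called 16 and 77 ORFs, at 0.01 it called 0, and the unweighted fit called 0 at both. The replicate letters did not pair the samples (deviations of same-lettered arrays correlated at -0.112, 0.108 and -0.259), and with the replicate block 0 of 4155 ORFs were called, with a smallest adjusted p of 0.983. Over 57 named genes and 993 alternatives, 929 kept direction and side of the threshold, 7 gained a call (all under array weights) and 57 changed sign, in 32 genes. The cause of each change was not tested, unless fewer arrays or values give it by construction.

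The ORFs with W27 arrays all above VIN7 numbered 420, and those all below 458, when 2 values per strain were enough. They numbered 220 above with the sign of W27 A turned and 134 below with that of VIN7 C turned, and leaving out 1 array gave 187 to 395 above and 335 to 515 below, where fewer arrays have to separate. ORFs with W27 at least 2-fold higher numbered 369 by the difference of medians, 356 without W27 A and VIN7 B together, and 437 to 940 with 1 array left out.

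Had W27 A been read with the other sign, the median difference would be 0.21 for lower glycolysis, -1.34 for pyruvate decarboxylases, -0.13 for general stress defence, -0.78 for chaperones, -0.55 for small-subunit and -1.06 for large-subunit ribosomal proteins, -0.86 for translation factors, -0.76 for cell wall mannoproteins, -1.27 for amino acid biosynthesis, 0.15 for SWR1 and INO80, -0.45 for actin, 0.31 for the 13-gene list, 0.027 and 0.040 for the genes down- and up-regulated in W27, and -0.75 and 0.33 for those up- and down-regulated between the parental species and the hybrids. Single genes changed sign there as well, to -1.01 for PGK1, -0.74 for PFK1, -0.68 for PFK2, -1.52 for PDC1, -1.29 for PDC5, -1.34 for PDC6, -0.64 for GRE2, -3.44 for DDR2, -0.96 for SSA2, -0.93 for SSB2, -0.62 for AHA1, -0.75 for RPS18a, -1.09 for RPS15, 0.034 for RPS16a, -1.36 for RPL32, 0.70 for UTP13, -1.15 for EFT1, -0.76 for CWP2, -0.40 for FLO5, 0.46 for IDP2, -0.85 for SDH3, 0.10 for MRPL8, -1.27 for ILV2, -0.76 for ACT1, -0.45 for COF1, 0.058 for EIS1, 0.005 for MMR1, 0.027 for SPC3 and 0.91 for YER010C. Turning VIN7 C gave 1.79 for pyruvate decarboxylases, 0.19 for rRNA processing, 0.75 for SWR1 and INO80, 0.92 for the 13-gene list, -0.17 for the genes down-regulated in VIN7, 0.19 for ANB1, -0.17 for INO80 and -0.014 for chromosome VIII.

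On a common spread of the arrays the pyruvate decarboxylase median and PDC1 were at -0.54 and PDC5 at -0.0054, PDC6 at -0.69, the genes down-regulated in VIN7 at 1.53 and those down- and up-regulated in W27 at -0.69 and 1.10, and with quantile normalization that median and PDC1 were at -0.047, SSA2 at -0.029, PDC6 at -0.66 and the genes down-regulated in VIN7 at 1.63. A dye term put DDR2 at -1.44 and PDC6 at -0.25. Without W27 A and VIN7 B together the medians were -0.23 for small-subunit and -0.56 for large-subunit ribosomal proteins and 0.98 for the 13-gene list, with CPR1 at 0.027, PDC6 at -0.20, RPS18a at -0.60, RPS15 at -0.57 and UTP13 at 0.52. Array weights gave -0.51 for RPS18a, -0.56 for RPS15 and 0.33 for UTP13, and the difference of medians gave -0.13, -0.19 and 0.21 for the same genes, and PDC6 was at -0.31 and -0.22. Leaving out 1 array in turn gave medians of -0.28 (without W27 A) to 1.31 for small-subunit ribosomal proteins, -0.17 (without VIN7 B) to 1.14 for rRNA processing, 0.26 (without VIN7 C) to 1.65 for actin and 0.95 (without W27 A) to 1.77 for the 13-gene list and -2.50 (without VIN7 A) to -1.22 for the genes down-regulated in W27. Single genes that changed sign without W27 A ranged from -0.56 to 1.34 for RPS18a, from -0.44 to 1.06 for RPS15, from -0.25 to 0.24 for PDC6 (also negative without VIN7 C) and from -1.63 to 0.43 for UTP13.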
